A study of Mus musculus with 9 samples.

Results

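FGF signalling and its ERK feedback genes were followed in the hindgut of mouse embryos with a loss of Ednrb, the gene for endothelin receptor B, through 10 genes. The genes were the feedback inhibitors Spry1, Spry2, Spry4 and Dusp6, the response factors Etv4 and Etv5, the ligand Fgf10, and the receptors Fgfr1, Fgfr2 and Fgfr3. All probe sets whose annotation named 1 of these genes and no other were taken, which gave 22 of the 45037 probe sets tested and 10 of the 18193 genes that had a probe set of their own. No probe set named a member together with another gene. Each was measured on 9 Affymetrix MOE430 version 2 arrays, 3 for each of 3 groups. The first group, Ednrb -/-, carried a lacZ allele on both copies of Ednrb (arrays 29, 37 and 41). The second was labelled Ednrb-FLEX(NCC-/-), meaning per its labels a loss of Ednrb in NCC cells (arrays 2, 5 and 6), and the third was wild type (arrays 1B, 1C and 1D). The labels spell out neither NCC nor FLEX, and the sources used here give neither the driver of the deletion nor the strain. Embryos were at embryonic day 14 by the sample labels and at 14.5 by the series text, the tissue was the terminal colon, and 150 ng of total RNA was labelled. The sources used here do not say how many embryos an array stands for, so a p-value here reflects just the spread among these arrays, which may be partly technical.

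FGF ligands bind receptor tyrosine kinases on the cell surface, and the activated receptors pass the signal through RAS and RAF to the kinase ERK. ERK induces the ETS transcription factors Etv4 and Etv5 and also its own brakes, the Sprouty proteins, which hold back signalling between the receptor and RAS, and Dusp6, a phosphatase that inactivates ERK in the cytoplasm. In the developing gut, Fgf10 from the mesenchyme acts on epithelial Fgfr2, and mouse embryos without Fgf10 or the epithelial form of Fgfr2 fail to form an intact colon. The same ERK feedback also limits RET, the receptor through which GDNF drives enteric neural crest cells, and mice without Spry2 develop too many enteric nerve cells.

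Values are log2 intensities, and within a group they are listed in the array order given above. Median log2 intensity lay between 6.80 and 6.85 on all arrays. The targeted gene matched the Ednrb -/- label: the brightest Ednrb probe set (1437347_at) had 9.23, 9.40 and 8.77 in Ednrb -/-, 11.15, 11.32 and 11.04 in Ednrb-FLEX(NCC-/-), and 11.08, 10.95 and 11.05 in wild type. Ednrb fell by 1.89 in Ednrb -/- against wild type (limma, adjusted p = 2.9e-05) and differed by 0.15 in Ednrb-FLEX(NCC-/-) (adjusted p = 0.696) in bulk tissue that also holds cells outside the labelled deletion, so this value does not check that label. The hindgut label was met by Hoxd13, a gene of the most distal gut, which averaged 12.29 in Ednrb -/-, 12.07 in Ednrb-FLEX(NCC-/-) and 12.12 in wild type, above the median of every array. Hoxd13 does not stand for all 6 measured hindgut identity markers. In Ednrb -/- against wild type limma called 1 of them higher and 1 lower, and between the mutants 2 higher and 1 lower. In Ednrb-FLEX(NCC-/-) against wild type 0 were called. In bulk tissue, fewer cells of a type and less RNA per cell cannot be told apart. Of 9 measured enteric neural crest markers, 6 fell in Ednrb -/- and 3 in Ednrb-FLEX(NCC-/-), and the log2 of their summed intensity was 11.83 to 12.05 in Ednrb -/-, 12.12 to 12.46 in Ednrb-FLEX(NCC-/-) and 12.41 to 12.85 in wild type, where the last 2 groups overlapped. For gut epithelium markers the same sum was 14.77 to 15.20 in Ednrb -/-, 15.41 to 15.63 in Ednrb-FLEX(NCC-/-) and 15.13 to 15.17 in wild type. The 3' to 5' log2 ratio of the Actb control probe sets, a measure of RNA integrity, was 0.80 to 0.90 in Ednrb -/-, 1.03 to 1.40 in Ednrb-FLEX(NCC-/-) and 1.08 to 1.32 in wild type. The mean log2 level of 3 Y-linked genes was 7.82 to 9.38 in Ednrb -/-, 3.74 to 8.80 in Ednrb-FLEX(NCC-/-) and 7.65 to 9.38 in wild type. The part these differences between arrays play in the results was not tested beyond fits that include the Actb ratio or Y-linked level. The Actb ratio of every Ednrb -/- array lay below that of all other arrays. A fit that includes it therefore cannot separate RNA integrity from the Ednrb -/- genotype.

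Most of the FGF and ERK genes did not pass the test in either mutant. Of the 22 probe sets, 1 was called higher and 0 lower in each comparison (limma with Benjamini-Hochberg adjustment over all probe sets, adjusted p under 0.05). The probe set that rose in Ednrb -/- and in Ednrb-FLEX(NCC-/-) was the dimmer of the Spry2 pair, and the one that was higher in Ednrb -/- than in Ednrb-FLEX(NCC-/-) was 1 of 3 for Fgfr1. Among all probe sets, 5.03% were called in Ednrb -/- against wild type, 3.58% in Ednrb-FLEX(NCC-/-) against wild type and 4.41% between the mutants, so 1 of 22 is near the background in each. At an unadjusted p under 0.05 the 22 gave 3, 4 and 4 calls in that order of comparisons, where all probe sets gave 17.3%, 17.0% and 17.3%. Both mutants were compared with the same 3 wild type arrays, so their differences from wild type are not independent.

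**Figure D1:**
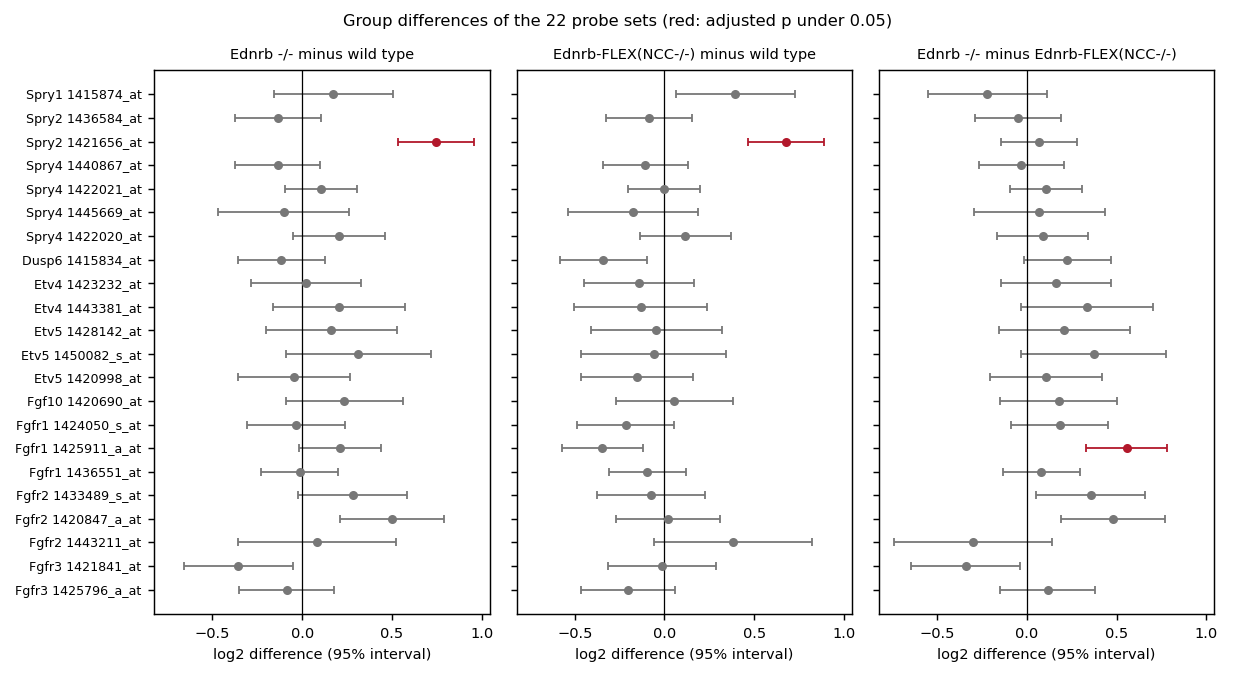
Log2 difference of each of the 22 probe sets (rows, named by gene and probe set) with its 95% confidence interval in 3 comparisons (panels), with probe sets at an adjusted p under 0.05 in red. One Spry2 probe set stands at 0.75 and 0.68 against wild type, its partner lies at -0.14 and -0.09, and the Fgfr1 probe set called between the mutants stands at 0.56.

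The differences were small and their precision was enough to bound them. The median of the 22 differences was 0.09 in Ednrb -/- against wild type, -0.08 in Ednrb-FLEX(NCC-/-) against wild type and 0.11 in Ednrb -/- against Ednrb-FLEX(NCC-/-), beside medians of 0.03, 0.01 and 0.02 over all probe sets. Without regard to sign the medians were 0.15, 0.12 and 0.18, beside 0.11 over all probe sets in each comparison. The differences ranged from -0.35 to 0.75 in the first comparison, -0.35 to 0.68 in the second and -0.34 to 0.56 between the mutants. In each comparison the 95% confidence interval of all 22 probe sets lay within a 2-fold change in either direction. RMA draws dim probe sets toward no change, so these intervals describe intensities and may understate changes of dim transcripts. In Ednrb -/- against wild type, 4 probe sets had groups that did not overlap, and in all 4 Ednrb -/- was above. In Ednrb-FLEX(NCC-/-) against wild type there were 3, with 1 above and 2 below, and between the mutants there were 2, where Ednrb -/- was above. Groups of all probe sets were free of overlap in 20.7%, 19.3% and 21.3%.

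Spry2, a Sprouty protein that restrains RET and FGF receptor signalling, was read by a pair of probe sets that did not give the same answer. The dimmer one (1421656_at) rose in both mutants to a similar level, while the brighter one (1436584_at) did not pass in either. The dimmer probe set had 7.52, 7.49 and 7.70 in Ednrb -/-, 7.42, 7.48 and 7.60 in Ednrb-FLEX(NCC-/-), and 6.82, 6.94 and 6.71 in wild type. All 6 mutant arrays were above all 3 wild type arrays, and the wild type values lay around the median probe set of the array. The difference was 0.75 ± 0.10 (SE) in Ednrb -/- (95% interval 0.53 to 0.96, limma adjusted p = 0.00109) and 0.68 ± 0.10 in Ednrb-FLEX(NCC-/-) (0.46 to 0.89, adjusted p = 0.00348). Between the mutants it was 0.07 (95% interval -0.14 to 0.28, limma adjusted p = 0.796), and the arrays of the mutants overlapped.

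The brighter Spry2 probe set had 9.23, 9.15 and 8.87 in Ednrb -/-, 9.20, 9.10 and 9.09 in Ednrb-FLEX(NCC-/-), and 9.15, 9.36 and 9.15 in wild type. The groups overlapped, and its difference had the opposite sign: -0.14 in Ednrb -/- (95% interval -0.38 to 0.10, limma adjusted p = 0.586) and -0.09 in Ednrb-FLEX(NCC-/-) (-0.33 to 0.15, adjusted p = 0.764). Neither interval reached the interval of the dimmer probe set. The disagreement can be read within each array as the brighter minus the dimmer log2 value, in which anything that scales both alike cancels. It was 1.71, 1.66 and 1.17 in Ednrb -/-, 1.79, 1.62 and 1.49 in Ednrb-FLEX(NCC-/-), and 2.33, 2.42 and 2.44 in wild type. No mutant array reached the wild type range, and the spread among wild type arrays was the smallest. The mean was 1.52 ± 0.30 in Ednrb -/- and 1.63 ± 0.15 in Ednrb-FLEX(NCC-/-), against 2.40 ± 0.06 in wild type (SD, n = 3 each). The difference from wild type was -0.88 in Ednrb -/- and -0.77 in Ednrb-FLEX(NCC-/-), and between the mutants it was -0.12. These are given as a description with no test, since the dimmer probe set was called in the same comparisons.

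**Figure D2:**
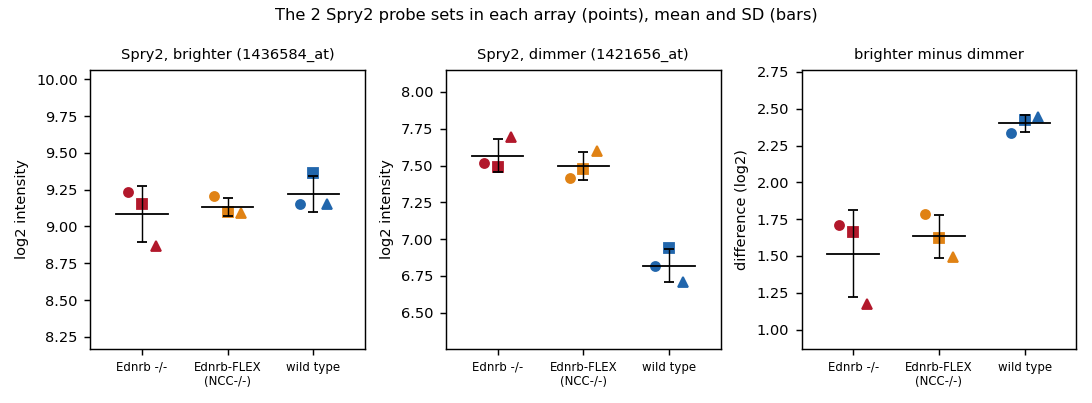
Log2 intensity of the brighter (left) and the dimmer (middle) Spry2 probe set and their difference within each array (right) for Ednrb -/-, Ednrb-FLEX(NCC-/-) and wild type. Points are arrays, with 1 marker shape per position in the array order, and bars give mean and SD. The dimmer probe set lies between 7.42 and 7.70 in the mutants and between 6.71 and 6.94 in wild type, while the brighter one overlaps in all 3 groups.

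The call for Spry2 therefore depended on how its probe sets were used. Taking the brightest probe set per gene left 0 of the 10 genes called by limma in each comparison (1, 2 and 2 at an unadjusted p under 0.05). Of all 18193 genes taken this way, 4.79%, 3.90% and 5.29% were called, and 18.5%, 18.8% and 18.9% had an unadjusted p under 0.05. The counts of the 10 genes are therefore near the background. Averaging the probe sets gave Spry2 a difference of 0.31 in Ednrb -/- (limma adjusted p = 0.0414) and 0.29 in Ednrb-FLEX(NCC-/-) (adjusted p = 0.0490). The dimmer probe set kept its call against wild type in Ednrb-FLEX(NCC-/-) under every alternative run at the level of probe sets. In Ednrb -/- the call ended when the Actb ratio entered the fit as a covariate (0.71, limma adjusted p = 0.0712) and held under the other alternatives run on probe sets. Of the 9 measured markers of the enteric neural crest, a cell type in which Sprouty proteins act, 6 fell in Ednrb -/- and 3 in Ednrb-FLEX(NCC-/-), whose summed levels overlapped those of wild type. Mesothelium markers went the other way, with a summed log2 level of 12.25 to 12.57 in Ednrb -/-, 12.61 to 12.81 in Ednrb-FLEX(NCC-/-) and 11.67 to 12.25 in wild type. Of these 8 markers, limma called 0 in Ednrb -/- and 1 in Ednrb-FLEX(NCC-/-) against wild type. Beyond these fits, the part of RNA integrity and of the crest and mesothelium markers in the Spry2 values was not tested.

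Spry2 lies on chromosome 14, as does Ednrb, and both mutant groups carry, per their labels, a modified Ednrb gene that wild type lacks. An effect of the receptor's loss and an effect of the chromosome the allele came on therefore cannot be told apart for Spry2 in these comparisons. RefSeq's genes of mouse assembly GRCm38.p6, consulted for their order alone, include 31 between Ednrb and Spry2, of which 4 code for proteins and 8 had a probe set of their own. Of these 8, taken by their brightest probe set, 1 was called, the non-coding gene 4930518C04Rik next to Ednrb. It had 6.36, 7.08 and 5.98 in Ednrb -/-, 4.32, 4.09 and 4.32 in Ednrb-FLEX(NCC-/-), and 4.75, 4.58 and 4.58 in wild type. The 3 Ednrb -/- arrays were above the other 6, and the fitted difference from wild type was 1.84 (limma adjusted p = 0.000528). The values of wild type and Ednrb-FLEX(NCC-/-) lay far below the array median, where signal over background may be low, so the size of this difference is uncertain. It differed by -0.39 in Ednrb-FLEX(NCC-/-) (limma adjusted p = 0.405). The 4 protein-coding genes between them, Pou4f1, Obi1, Rbm26 and Ndfip2, were not called. Ndfip2, an adaptor of NEDD4 ubiquitin ligases, came nearest, with 10.92, 11.07 and 10.75 in Ednrb -/-, 11.09, 11.15 and 11.05 in Ednrb-FLEX(NCC-/-), and 10.71, 10.83 and 10.66 in wild type. Its difference was 0.18 in Ednrb -/- and 0.36 in Ednrb-FLEX(NCC-/-) (limma adjusted p = 0.0728). Of the 3 nearest measured genes beyond Spry2, Slitrk1, a neuronal membrane protein, fell by 1.04 in Ednrb -/- (limma adjusted p = 0.0152), a call that ended without Ednrb -/- 37 or 41, without wild type 1B or 1D, or with the Actb covariate. Slitrk6 and Slitrk5 were not called.

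By Pearson correlation over the 9 arrays, the genes most like the brighter Spry2 probe set among the other 18192 were Ugcg at 0.967, Lactb at 0.960, Cdca7l at 0.928, Ccm2 at 0.923 and Slc10a1 at 0.922, given as a description. They are the highest of many correlations over few arrays. Whether they exceed those of unrelated genes was not tested.

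The other Sprouty genes did not pass the test in any comparison. Spry1 was read by 1 probe set (1415874_at), which had 10.71, 10.51 and 10.49 in Ednrb -/-, 10.83, 10.60 and 10.94 in Ednrb-FLEX(NCC-/-), and 10.09, 10.71 and 10.39 in wild type. The groups overlapped, with wild type spanning the widest range. The difference was 0.17 in Ednrb -/- (limma adjusted p = 0.621) and 0.40 in Ednrb-FLEX(NCC-/-) (adjusted p = 0.201). Spry4 had 4 probe sets. The brightest (1440867_at) had 7.98, 8.07 and 7.93 in Ednrb -/-, 7.95, 8.14 and 7.97 in Ednrb-FLEX(NCC-/-), and 7.91, 8.20 and 8.28 in wild type. These values overlapped in all groups, and the differences were -0.14 in Ednrb -/- against wild type, -0.11 in Ednrb-FLEX(NCC-/-) against wild type and -0.03 in Ednrb -/- against Ednrb-FLEX(NCC-/-). The other 3 Spry4 probe sets had group means of 4.91 to 5.71 in Ednrb -/-, 4.82 to 5.60 in Ednrb-FLEX(NCC-/-) and 4.70 to 5.61 in wild type. All lay below the median of every array, where signal over background may be low. Over the 4 probe sets the difference ranged from -0.14 to 0.20 in Ednrb -/- and from -0.17 to 0.12 in Ednrb-FLEX(NCC-/-) against wild type.

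Dusp6, the cytoplasmic ERK phosphatase, was read by 1 probe set (1415834_at), which had 11.26, 11.28 and 11.04 in Ednrb -/-, 11.05, 10.92 and 10.94 in Ednrb-FLEX(NCC-/-), and 11.15, 11.52 and 11.28 in wild type. All Ednrb-FLEX(NCC-/-) arrays lay below all wild type arrays, by a narrow gap, and Ednrb -/- overlapped both groups. The difference was -0.34 in Ednrb-FLEX(NCC-/-) (95% interval -0.58 to -0.10, limma adjusted p = 0.128), -0.12 in Ednrb -/- (adjusted p = 0.657) and 0.23 between the mutants (adjusted p = 0.334).

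Etv4 and Etv5, the ETS factors that FGF and RET signalling induce, differed between groups by less than the range of the wild type arrays. Etv4 (1423232_at) had 9.37, 9.31 and 9.27 in Ednrb -/-, 8.93, 9.16 and 9.38 in Ednrb-FLEX(NCC-/-), and 9.07, 9.57 and 9.25 in wild type. The Ednrb -/- arrays were the tightest and fell inside the wild type range. The difference was 0.02 in Ednrb -/- (limma adjusted p = 0.964) and -0.14 in Ednrb-FLEX(NCC-/-) (adjusted p = 0.685). A second, dim Etv4 probe set (1443381_at) had 5.91, 5.47 and 5.45 in Ednrb -/-, 4.99, 5.37 and 5.46 in Ednrb-FLEX(NCC-/-), and 5.46, 5.62 and 5.15 in wild type, and its differences of 0.20 and -0.13 from wild type had the same signs as those of the brighter one.

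Etv5 (1428142_at) had 8.61, 8.43 and 8.20 in Ednrb -/-, 8.23, 8.04 and 8.35 in Ednrb-FLEX(NCC-/-), and 7.90, 8.57 and 8.29 in wild type. Wild type 1B was the lowest and wild type 1C nearly the highest of the 9 arrays, so the groups overlapped throughout. The difference was 0.16 in Ednrb -/- (limma adjusted p = 0.689) and -0.05 in Ednrb-FLEX(NCC-/-) (adjusted p = 0.933). The dimmer 1450082_s_at repeated this order of arrays within wild type, with 6.81, 6.58 and 6.61 in Ednrb -/-, 6.07, 6.24 and 6.59 in Ednrb-FLEX(NCC-/-), and 5.93, 6.67 and 6.48 in wild type. Its difference between the mutants, 0.37 (limma adjusted p = 0.338), was larger than that of the brightest Etv5 probe set, 0.21 (adjusted p = 0.602), and neither passed. The third, 1420998_at, was dim, between 4.77 and 5.37 on all arrays, and differed by -0.05 in Ednrb -/- and -0.15 in Ednrb-FLEX(NCC-/-) from wild type.

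Fgf10, the mesenchymal ligand, was read by 1 probe set (1420690_at). It had 8.09, 7.92 and 7.76 in Ednrb -/-, 7.82, 7.66 and 7.75 in Ednrb-FLEX(NCC-/-), and 7.52, 8.06 and 7.49 in wild type. Wild type 1C was within the Ednrb -/- range and the other wild type arrays were below both mutants. The difference was 0.23 in Ednrb -/- (95% interval -0.09 to 0.56, limma adjusted p = 0.471) and 0.06 in Ednrb-FLEX(NCC-/-) (adjusted p = 0.905).

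**Figure D3:**
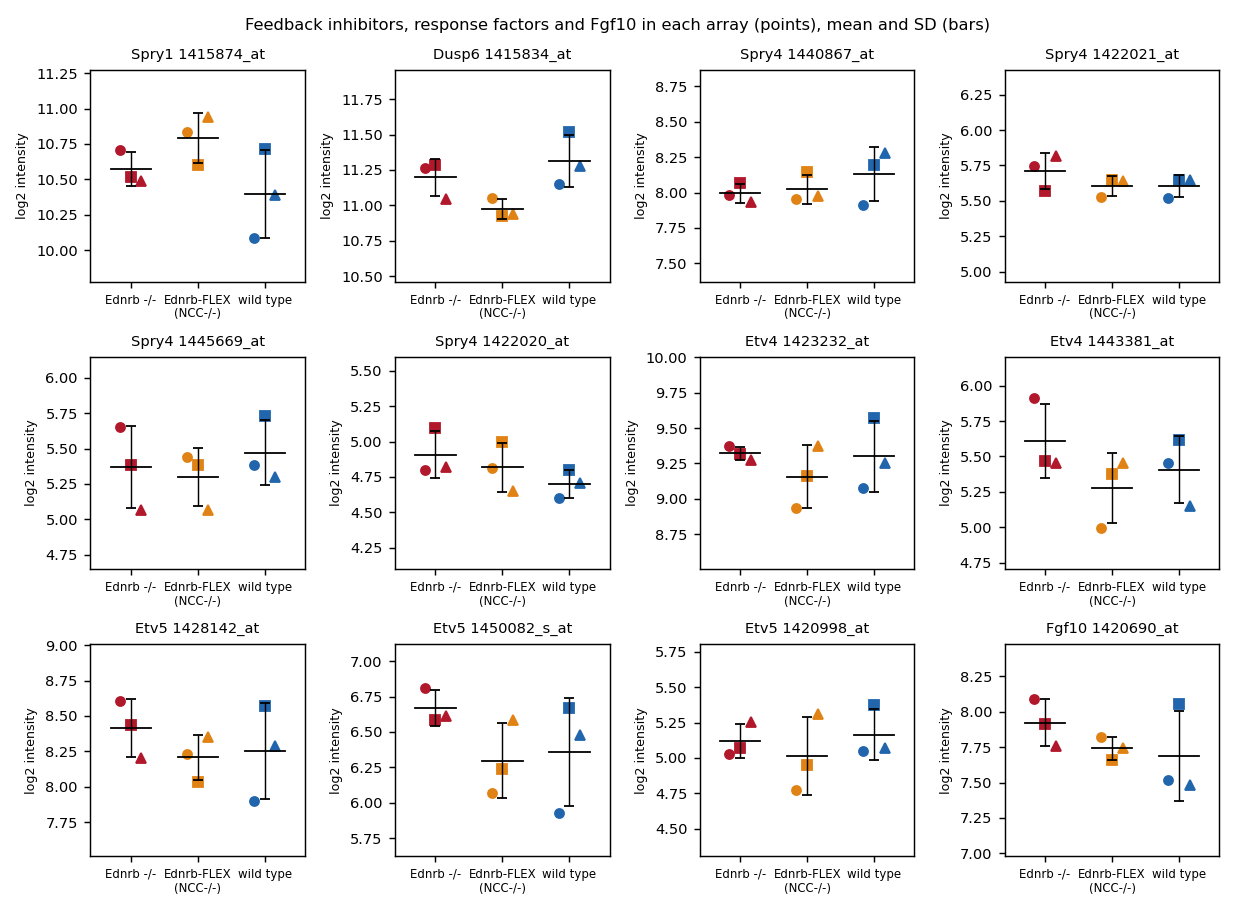
Log2 intensity of the Spry1, Dusp6, Spry4, Etv4, Etv5 and Fgf10 probe sets (panels, each with its own axis) in Ednrb -/-, Ednrb-FLEX(NCC-/-) and wild type. Points are arrays and bars give mean and SD. The groups overlap in most panels, and for Dusp6 the Ednrb-FLEX(NCC-/-) arrays, at 10.92 to 11.05, lie below the wild type arrays, at 11.15 to 11.52.

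The receptors held the widest set of differences between the mutants. Fgfr1, an FGF receptor of mesenchymal cells, was read by 3 probe sets, and 1 of them (1425911_a_at) was higher in Ednrb -/- than in Ednrb-FLEX(NCC-/-). It had 9.23, 9.37 and 9.33 in Ednrb -/-, 8.60, 8.93 and 8.74 in Ednrb-FLEX(NCC-/-), and 9.00, 9.10 and 9.21 in wild type. The 3 groups did not overlap, with wild type in between. The difference between the mutants was 0.56 ± 0.10 (SE; 95% interval 0.33 to 0.78, limma adjusted p = 0.0125). Against wild type it was 0.21 in Ednrb -/- (limma adjusted p = 0.329) and -0.35 in Ednrb-FLEX(NCC-/-) (adjusted p = 0.101), so neither mutant passed against wild type. The call between the mutants ended without Ednrb-FLEX(NCC-/-) 6 (0.55, limma adjusted p = 0.0533), after adding the Y-linked level to the fit (0.42, adjusted p = 0.0866) and after adding the Actb ratio (0.28, adjusted p = 0.510).

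The other Fgfr1 probe sets did not pass. The brightest (1424050_s_at) had 10.25, 10.22 and 10.17 in Ednrb -/-, 10.23, 10.02 and 9.85 in Ednrb-FLEX(NCC-/-), and 10.49, 10.12 and 10.13 in wild type. It overlapped in all 3 groups, and its difference between the mutants was 0.18. The dimmest (1436551_at) had 7.80, 7.73 and 7.79 in Ednrb -/-, 7.85, 7.50 and 7.73 in Ednrb-FLEX(NCC-/-), and 7.84, 7.78 and 7.74 in wild type, and differed by 0.08 between the mutants. All 3 probe sets were thus positive between the mutants. Their mean differed by 0.27 (limma adjusted p = 0.0355), but it includes the called probe set and so gives no separate support. Over the 9 arrays the called probe set correlated with the brightest at 0.26 and with the dimmest at 0.001 (Pearson). Taken within groups, as deviations from the group means, these correlations were -0.59 and -0.93.

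Fgfr2, the epithelial receptor of Fgf10, was read by 3 probe sets, and a bright pair was highest in Ednrb -/-. The brightest (1433489_s_at) had 11.91, 11.58 and 11.84 in Ednrb -/-, 11.62, 11.12 and 11.52 in Ednrb-FLEX(NCC-/-), and 11.56, 11.55 and 11.36 in wild type. Ednrb -/- lay above wild type by a gap of under 0.05 and overlapped Ednrb-FLEX(NCC-/-). The differences were 0.28 in Ednrb -/- (limma adjusted p = 0.327), -0.07 in Ednrb-FLEX(NCC-/-) (adjusted p = 0.856) and 0.36 between the mutants (adjusted p = 0.203). The next (1420847_a_at) had 9.81, 9.38 and 9.64 in Ednrb -/-, 9.21, 8.99 and 9.18 in Ednrb-FLEX(NCC-/-), and 8.94, 9.33 and 9.06 in wild type. All Ednrb -/- arrays were above all other arrays, with array 37 near wild type 1C.

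The difference of 1420847_a_at was 0.50 ± 0.13 (SE) in Ednrb -/- against wild type (limma adjusted p = 0.0551) and 0.48 between the mutants (adjusted p = 0.0684), and 0.02 in Ednrb-FLEX(NCC-/-) (adjusted p = 0.964). It sat at the edge of the threshold: against wild type it passed with trended and robust variances (limma adjusted p = 0.0446), with the dimmest 40% of probe sets left out (0.0446), with array weights (0.0298), without Ednrb -/- 37 (0.0349) and without wild type 1C (0.0250). Between the mutants it passed with array weights (limma adjusted p = 0.0230), without Ednrb -/- 37 (0.0401) and without wild type 1C (0.0496). Other alternatives took it further from the threshold: against wild type its adjusted p by limma reached 0.207 on leaving out 1 array and 0.397 over all alternatives, and between the mutants 0.255 and 0.408, with the difference staying positive. The third Fgfr2 probe set (1443211_at) was dim, with 6.32, 5.91 and 6.31 in Ednrb -/-, 6.43, 6.25 and 6.77 in Ednrb-FLEX(NCC-/-), and 6.33, 6.32 and 5.64 in wild type. It overlapped in all groups, and its difference of -0.30 between the mutants had the opposite sign. Epithelial markers moved the other way from the bright Fgfr2 pair between the mutants: 8 of 12 were lower in Ednrb -/- than in Ednrb-FLEX(NCC-/-), among them the keratin Krt8 (-0.59, limma adjusted p = 0.00965) and the brush border protein Vil1 (-1.21, adjusted p = 0.00912). Of 9 mesenchyme markers, 2 were higher in Ednrb -/- than in Ednrb-FLEX(NCC-/-), Foxf2 by 0.76 and the Hedgehog target Gli1 by 0.40. The part of these markers in the receptor values was not tested.

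Fgfr3, a receptor best known for restraining bone growth, was read by a pair of probe sets that did not pass. The brighter (1421841_at) had 8.77, 9.21 and 8.86 in Ednrb -/-, 9.37, 9.20 and 9.30 in Ednrb-FLEX(NCC-/-), and 9.56, 9.17 and 9.18 in wild type. Ednrb -/- 29 and 41 were the lowest of the 9 arrays and array 37 was within the range of the other groups. The difference was -0.35 in Ednrb -/- (limma adjusted p = 0.202) and -0.01 in Ednrb-FLEX(NCC-/-) (adjusted p = 0.977). The dimmer (1425796_a_at) had 6.52, 6.29 and 6.43 in Ednrb -/-, 6.14, 6.39 and 6.36 in Ednrb-FLEX(NCC-/-), and 6.73, 6.31 and 6.46 in wild type. Its groups overlapped, and it differed by -0.09 in Ednrb -/- and -0.20 in Ednrb-FLEX(NCC-/-) against wild type.

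**Figure D4:**
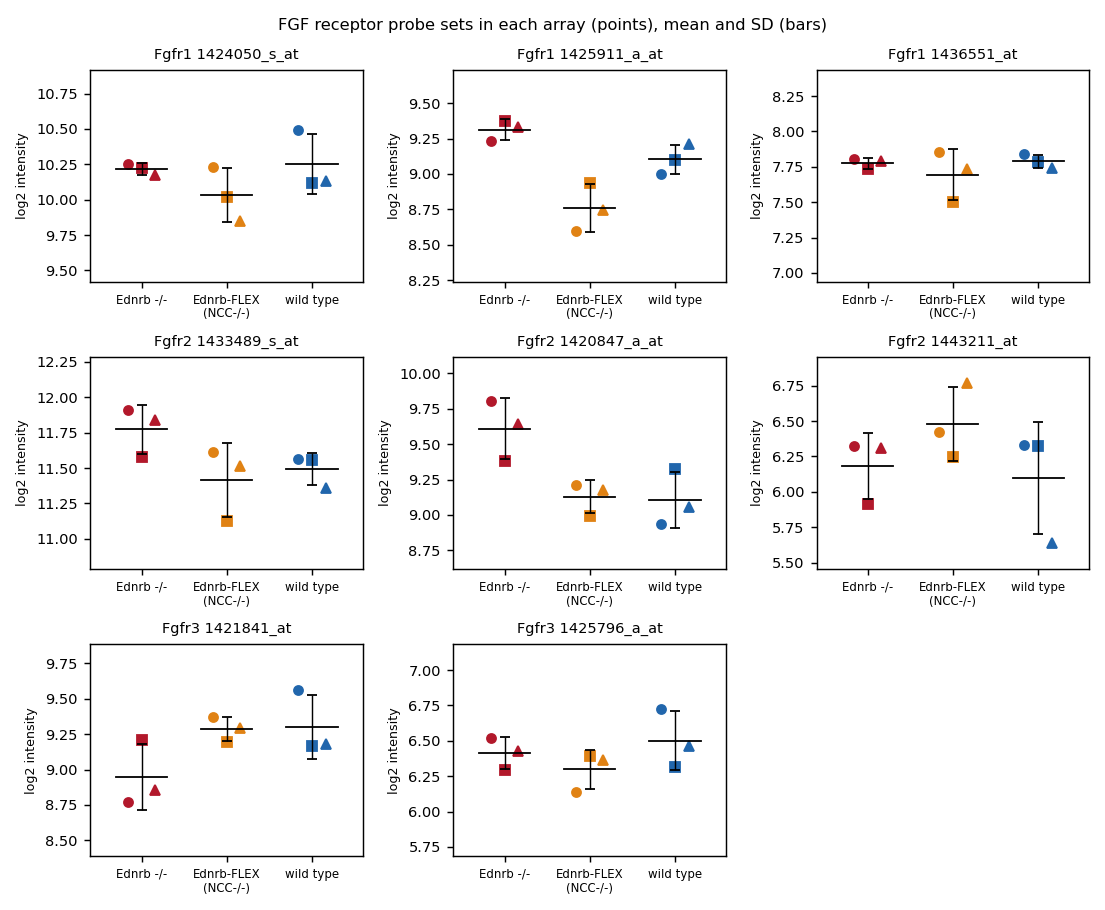
Log2 intensity of the 8 FGF receptor probe sets (panels, each with its own axis) in Ednrb -/-, Ednrb-FLEX(NCC-/-) and wild type. Points are arrays and bars give mean and SD. The Fgfr1 probe set 1425911_a_at separates the 3 groups, and the Fgfr2 probe set 1420847_a_at is 9.38 to 9.81 in Ednrb -/- and 8.94 to 9.33 elsewhere.

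Agreement among probe sets of a gene was limited. Of the 7 genes with several probe sets, the differences had the same sign throughout in 3 genes for Ednrb -/- against wild type, in 4 for Ednrb-FLEX(NCC-/-) against wild type and in 3 between the mutants. The signs agreed for Etv4 in all 3 comparisons, for Fgfr3 in both with wild type, for Fgfr1 and Etv5 between the mutants and in Ednrb-FLEX(NCC-/-) against wild type, for Fgfr2 in Ednrb -/- against wild type, and for Spry2 and Spry4 in no comparison. The gap between probe sets of a gene in the size of the difference was widest for Spry2, at -0.14 and 0.75 in Ednrb -/- against wild type. By Affymetrix naming, an a in the suffix marks a probe set that reads several transcripts of 1 gene and an s one that can read transcripts of several genes. The called Fgfr1 probe set and the Fgfr2 probe set at the threshold are of the a kind, and the called Spry2 probe set has neither letter. Which part of a transcript each probe set reads was not analysed here.

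Beyond the 10 genes, 4 lists covered the rest of the pathway, each gene taken by its brightest probe set. Over the brightest probe sets of all 18193 genes, 4.79% were called in Ednrb -/- against wild type (2.51% higher and 2.29% lower), 3.90% in Ednrb-FLEX(NCC-/-) against wild type (2.92% and 0.984%) and 5.29% between the mutants (1.56% and 3.73%). At an unadjusted p under 0.05 these shares were 18.5%, 18.8% and 18.9%. The FGF ligands other than Fgf10 were measured for all 21 genes listed, and limma called 0 in Ednrb -/- against wild type or between the mutants (2 and 4 at an unadjusted p under 0.05). In Ednrb-FLEX(NCC-/-) against wild type 1 of 21 rose, Fgf5 (1438883_at), with 5.54, 5.73 and 5.54 in Ednrb -/-, 5.72, 6.03 and 5.96 in Ednrb-FLEX(NCC-/-), and 4.27, 5.16 and 5.31 in wild type. These are dim values on which wild type 1B stands apart, and the difference was 0.99 (limma adjusted p = 0.0344). The call ended when any of the Ednrb-FLEX(NCC-/-) arrays, Ednrb -/- 29 or Ednrb -/- 41 was left out. Another Fgf5 probe set of similar brightness (1426186_a_at) did not rise there (-0.06, limma adjusted p = 0.879). The median difference of the ligands was 0.04 in Ednrb -/-, 0.08 in Ednrb-FLEX(NCC-/-) and -0.09 between the mutants. The ERK cascade, from the adaptors at the receptor to the kinases downstream of ERK, had 16 of 24 listed genes analysed here, and 0 of them were called in any comparison by limma (0, 0 and 1 at an unadjusted p under 0.05). The smallest p belonged to the adaptor Shc1 in Ednrb -/- (0.21, limma adjusted p = 0.336), the adaptor Gab1 in Ednrb-FLEX(NCC-/-) (-0.19, adjusted p = 0.411) and Shc1 between the mutants (0.23, adjusted p = 0.284). The medians of the cascade were 0.01, -0.08 and 0.10.

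The list of FGF receptors and coreceptors other than the 3 members held 17 genes, all measured. In Ednrb -/- against wild type 2 rose and 1 fell, in Ednrb-FLEX(NCC-/-) 0 rose and 1 fell, and between the mutants 2 were higher and 1 lower in Ednrb -/-, with medians of -0.15, -0.11 and -0.07. That is 3, 1 and 3 of 17 genes, where the share of all genes called was 4.79%, 3.90% and 5.29%, so the 1 of 17 is near the background. Gpc3, a heparan sulphate proteoglycan of the cell surface, had 12.76, 12.68 and 12.68 in Ednrb -/-, 12.41, 12.28 and 12.33 in Ednrb-FLEX(NCC-/-), and 12.12, 12.21 and 12.21 in wild type. The groups did not overlap, and Gpc3 rose by 0.53 in Ednrb -/- against wild type (limma adjusted p = 0.00261) and was 0.37 higher than in Ednrb-FLEX(NCC-/-) (adjusted p = 0.0253). Flrt3, a membrane protein that binds FGF receptors, had 11.26, 10.88 and 11.14 in Ednrb -/-, 10.82, 10.71 and 10.83 in Ednrb-FLEX(NCC-/-), and 10.28, 10.56 and 10.23 in wild type. It rose by 0.74 in Ednrb -/- (limma adjusted p = 0.00415), where its second probe set (1453102_at) also rose, by 0.88. Its brighter probe set did not pass in Ednrb-FLEX(NCC-/-) (0.43, limma adjusted p = 0.0791), while the second rose by 0.59 (adjusted p = 0.0311), a call lost on leaving out any of 5 arrays (adjusted p up to 0.102) or with the Y-linked covariate (0.0825). Gpc4, another glypican, fell by 0.45 in Ednrb -/- (limma adjusted p = 0.0253), while its dimmer probe set (1436514_at) did not pass (-0.21, adjusted p = 0.337).

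Fgfbp1, a carrier that releases FGFs from the matrix, had 8.62, 9.11 and 8.73 in Ednrb -/-, 10.03, 10.53 and 10.46 in Ednrb-FLEX(NCC-/-), and 9.53, 8.93 and 9.88 in wild type. It was 1.51 lower in Ednrb -/- than in Ednrb-FLEX(NCC-/-) (-1.51, limma adjusted p = 0.00439), and it passed against wild type in neither mutant. Sdc4, a syndecan that binds FGFs through its heparan sulphate chains, also had probe sets that disagreed. Its brighter probe set (1417654_at) had 11.03, 11.16 and 10.97 in Ednrb -/-, 10.64, 10.63 and 10.76 in Ednrb-FLEX(NCC-/-), and 11.03, 11.25 and 11.23 in wild type. Its dimmer one (1448793_a_at) had 8.11, 7.88 and 8.23 in Ednrb -/-, 9.22, 9.53 and 10.16 in Ednrb-FLEX(NCC-/-), and 8.48, 8.52 and 8.05 in wild type. In Ednrb-FLEX(NCC-/-) against wild type the brighter fell by 0.49 (limma adjusted p = 0.0168) while the dimmer rose by 1.29 (adjusted p = 0.00865). Gpc6 had 3 probe sets that fell in Ednrb-FLEX(NCC-/-), by 0.92, 0.73 and 0.80, while its brightest (1428774_at) differed by -0.19 (adjusted p = 0.465). One of these 3 (1419688_at) also fell in Ednrb -/-, by 0.52. A dimmer probe set of Sdc2 (1448545_at) fell by 0.63 in Ednrb -/-, where the brightest differed by 0.04.

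Among ERK feedback and response genes other than the members, 26 of 27 listed were analysed here. In Ednrb -/- against wild type 0 rose and 4 fell by limma, in Ednrb-FLEX(NCC-/-) 0 rose and 2 fell, and between the mutants 1 was higher and 1 lower in Ednrb -/-. At an unadjusted p under 0.05 the same comparisons gave 2 higher and 7 lower, 0 higher and 7 lower, and 6 higher and 3 lower. Over all genes the unadjusted shares were 11.3% higher and 7.18% lower in Ednrb -/-, 13.3% and 5.52% in Ednrb-FLEX(NCC-/-), and 8.70% and 10.2% between the mutants. The 2 calls between the mutants among 26 genes are near the 5.29% of all genes. Medians were -0.05, -0.11 and 0.04. Dusp4, a nuclear phosphatase of ERK, had 7.511, 7.568 and 7.488 in Ednrb -/-, 8.203, 7.981 and 8.133 in Ednrb-FLEX(NCC-/-), and 8.002, 8.278 and 8.424 in wild type. Only Ednrb -/- stood apart, lower by 0.71 against wild type (-0.71, limma adjusted p = 0.00363) and by 0.58 against Ednrb-FLEX(NCC-/-) (-0.58, adjusted p = 0.0152). Ccnd1, cyclin D1, which drives entry into the cell cycle, had 10.62, 10.81 and 10.84 in Ednrb -/-, 10.69, 10.66 and 10.73 in Ednrb-FLEX(NCC-/-), and 11.22, 11.28 and 11.60 in wild type. Both mutants lay below wild type and overlapped each other. Ccnd1 fell by 0.61 in Ednrb -/- (limma adjusted p = 0.00832) and by 0.67 in Ednrb-FLEX(NCC-/-) (adjusted p = 0.00797). Its other probe sets, 1417419_at and 1417420_at, also fell in Ednrb-FLEX(NCC-/-), by 0.84 and 0.51, and did not pass in Ednrb -/- (-0.38 and -0.24, limma adjusted p = 0.227 and 0.173).

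Egr1, an immediate early transcription factor, had 8.82, 8.53 and 8.92 in Ednrb -/-, 8.51, 8.23 and 8.41 in Ednrb-FLEX(NCC-/-), and 8.98, 9.01 and 9.26 in wild type. It fell by 0.70 in Ednrb-FLEX(NCC-/-) (limma adjusted p = 0.0121), a call that ended without Ednrb-FLEX(NCC-/-) 5 (adjusted p = 0.0563), and it differed by -0.32 in Ednrb -/- (adjusted p = 0.200). The ETS repressor Erf, by its brightest probe set, fell by 0.50 in Ednrb -/- (limma adjusted p = 0.0200) and Phlda1 by 0.42 (adjusted p = 0.0448). A dim Erf probe set (1422114_at) differed by 0.13 there (limma adjusted p = 0.629). Dusp1, another MAP kinase phosphatase, was 0.46 higher in Ednrb -/- than in Ednrb-FLEX(NCC-/-) (limma adjusted p = 0.0448). A dimmer probe set of the receptor tyrosine kinase Epha4 (1421928_at) rose by 0.76 in Ednrb -/- and differed by 0.15 in Ednrb-FLEX(NCC-/-), and a dimmer one of the RAS pathway inhibitor Spred2 (1441415_at) rose by 0.48 in Ednrb-FLEX(NCC-/-), while the brightest probe set of each did not pass against wild type. The Spred2 call (limma adjusted p = 0.0461) was lost under 9 of 18 alternatives, with 7 different arrays among those whose removal ended it (adjusted p up to 0.150). Of the enteric neural crest markers 6 of 9 fell in Ednrb -/- and 3 of 9 in Ednrb-FLEX(NCC-/-), and 8 of 12 epithelial markers were lower in Ednrb -/- than in Ednrb-FLEX(NCC-/-). Their part in these values was not tested.

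The 4 pathway lists gave 33 calls of a probe set in a comparison. Of these, 5 held under every alternative run on probe sets, which leaves out those that take 1 value per gene. In Ednrb-FLEX(NCC-/-) against wild type they were Ccnd1 1448698_at and 1417420_at, Gpc6 1419688_at and Sdc4 1448793_a_at. In Ednrb -/- against wild type it was Epha4 1421928_at. In the same comparisons the brightest probe set of Sdc4 differed by -0.49 (limma adjusted p = 0.0168). The brightest of Gpc6 differed by -0.19 (limma adjusted p = 0.465), and that of Epha4 by 0.215 (adjusted p = 0.572). Gpc6 1437417_s_at and 1441438_at fell as 1419688_at did. The Actb covariate ended 20 of the 33. Of these, 17 kept at least 80% of the size of their difference. Among them were Dusp4 (-0.74 with the covariate, -0.71 without), Flrt3 1429310_at (0.78 and 0.74) and Gpc3 (0.57 and 0.53) in Ednrb -/- against wild type. All 20 were comparisons with Ednrb -/-, whose arrays had lower Actb ratios than every other array. Neither the lost calls nor the sizes kept can therefore separate RNA integrity from that genotype. On leaving out 1 array, 18 of the 33 were lost and 0 changed sign. Against wild type the Ednrb -/- calls for Dusp4, Ccnd1, Gpc3 and both Flrt3 probe sets held without any 1 array. In the same comparison Phlda1 was lost without any of 8 arrays (limma adjusted p up to 0.149), Gpc4 without any of 5 (0.110), Erf without any of 4 (0.0707) and Gpc6 1419688_at without Ednrb -/- 37 (0.0524). Between the mutants Dusp1 and Sdc4 1417654_at were each lost without any of 8 arrays (limma adjusted p up to 0.180 and 0.149) and Gpc6 1437417_s_at without any of 6 (0.151). Gpc3 was lost there without any of 5 (0.117), Dusp4 without Ednrb -/- 29 or 41 or Ednrb-FLEX(NCC-/-) 6 (0.0650), and Gpc6 1441438_at without Ednrb -/- 29 (0.0592). In Ednrb-FLEX(NCC-/-) against wild type, besides Fgf5, Flrt3, Egr1 and Spred2, Sdc4 1417654_at was lost without Ednrb-FLEX(NCC-/-) 2 or 5 or wild type 1C (limma adjusted p up to 0.0661), Gpc6 1437417_s_at without Ednrb-FLEX(NCC-/-) 6 or wild type 1B (0.0541), and Gpc6 1441438_at and Ccnd1 1417419_at without wild type 1B (0.0559 and 0.0511).

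**Figure D5:**
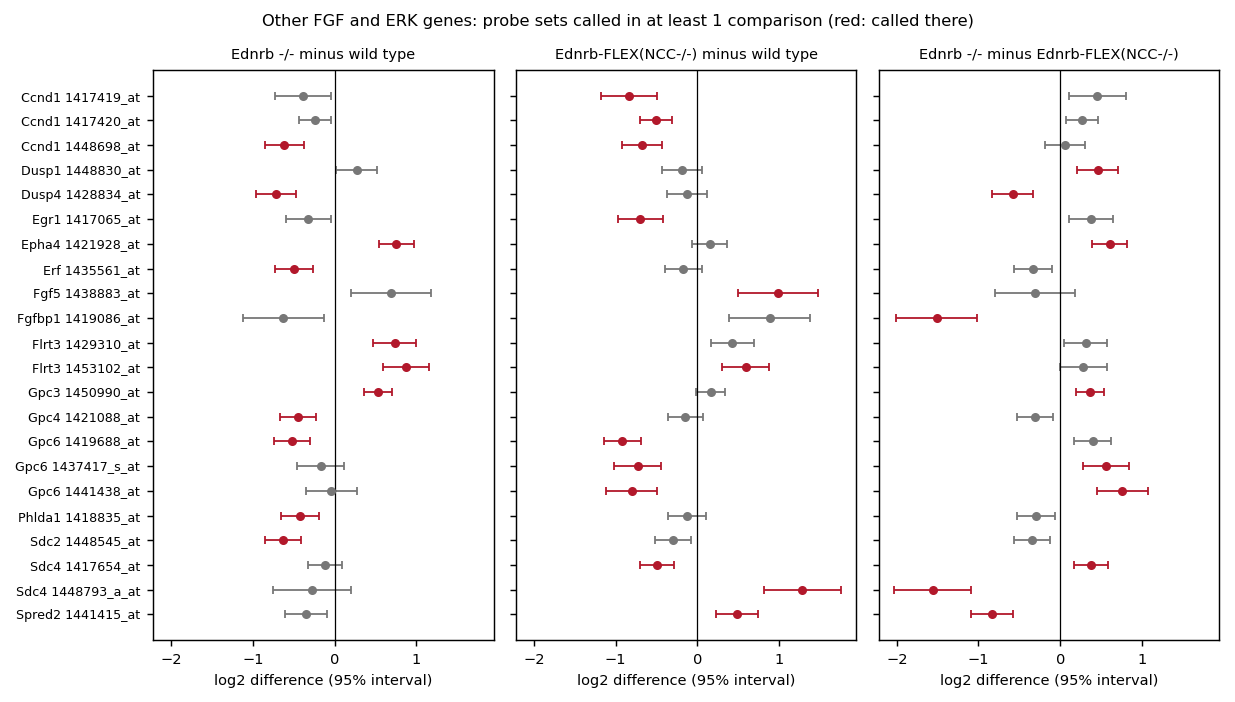
Log2 difference with its 95% confidence interval of the 22 probe sets of 16 other FGF and ERK genes that were called in at least 1 comparison (rows), in 3 comparisons (panels), with calls in red. Dusp4 lies at -0.71 in Ednrb -/- against wild type, Ccnd1 1448698_at at -0.61 and -0.67 in the mutants against wild type, and the Sdc4 probe sets lie at -0.49 and 1.29 in Ednrb-FLEX(NCC-/-) against wild type.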

How the data were processed

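RNA of the terminal colon was hybridised to 9 MOE430 version 2 arrays. For every array the authors deposited a single intensity for each probe set, computed by RMA (per the submitters' processing notes). The version and the chip definition were not given in the sources used here. The deposited intensities were linear, and their log2 was taken with no pseudocount, further scaling or filter. RMA corrects background, quantile-normalises and summarises probes, and shrinks differences of dim probe sets. Since an array has no read depth, precision is limited by the number of arrays.

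Of 45101 probe sets, 64 controls were left out. Members were matched through the platform's gene table. The members, the pathway lists and the marker lists were chosen with earlier results of these data known. Groups came from the labelled genotype. A mean per group was fitted with limma 3.58.1 in R 4.3.3 (lmFit, eBayes without trend) to 45037 probe sets over all 9 arrays, with 3 contrasts and 2-sided p-values adjusted by Benjamini-Hochberg, called under 0.05. The fit was tested on simulated data. The genes named were the members, Ednrb, its neighbours up to Spry2 and 3 genes beyond, the 5 genes most like Spry2, the called genes of each pathway list (else that of smallest p), and markers.

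Alternatives were array centring, quantile normalization, leaving out the dimmest 40% of probe sets, fitting 2 groups only, trended and robust variances, array weights, the Actb ratio or Y-linked level as a covariate, each array left out in turn, a threshold of 0.10, and the brightest or mean probe set per gene. For pathway genes, neighbours and Ednrb they were added after seeing the data. Probe sequences were not used here.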

Additional observations from a re-analysis of the deposited data

Results flagged for a closer look

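Several results differed between the mutants by the test of that difference itself (limma, adjusted p under 0.05). Groups of 3 arrays allow no outlier test. Values are Ednrb -/- minus Ednrb-FLEX(NCC-/-) on the log2 scale. Among the 10 genes this was Fgfr1 1425911_a_at at 0.56 (limma adjusted p = 0.0125). The targeted gene Ednrb differed by -1.83, -1.62 and -2.04 in its 3 probe sets, and its neighbour 4930518C04Rik by 2.23. Of receptors and coreceptors, Fgfbp1 differed by -1.51, Gpc3 by 0.37, Gpc6 by 0.56 and 0.76 in 2 probe sets, and Sdc4 by 0.37 in its brighter and -1.56 in its dimmer probe set. Of feedback and response genes, Dusp1 differed by 0.46, Dusp4 by -0.58, Epha4 1421928_at by 0.61 and Spred2 1441415_at by -0.83.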

How the results depend on the processing

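No called probe set changed sign under any alternative run on probe sets. Spry2, taken by its brightest probe set, changed sign against wild type when its probe sets were averaged, 0.31 in Ednrb -/- and 0.29 in Ednrb-FLEX(NCC-/-), because the average includes the dimmer probe set. Of 66 tests of a member probe set in a comparison, 63 were not called, and 61 of these were called under no alternative run on probe sets. Member probe sets called between the mutants numbered 0 with the Actb or the Y-linked covariate, 2 under an adjusted p of 0.10 or array weights, and 0 to 2 without 1 array. In Ednrb -/- against wild type they numbered 0 with the Actb covariate, 2 under an adjusted p of 0.10, array weights, trended and robust variances or the dimmest probe sets left out, and 1 to 2 without 1 array. In Ednrb-FLEX(NCC-/-) against wild type there was 1 throughout. Over all probe sets, calls in Ednrb -/- against wild type numbered 539 with the Actb covariate and 1330 to 2358 without 1 array (lowest without Ednrb -/- 29, then 1373 without wild type 1B and 1456 without Ednrb -/- 37). In Ednrb-FLEX(NCC-/-) against wild type they numbered 2871 under an adjusted p of 0.10, 1042 with 2 groups only, 831 with the Y-linked covariate and 716 to 1971 without 1 array (716 without Ednrb-FLEX(NCC-/-) 6, 744 without wild type 1B, 848 without Ednrb-FLEX(NCC-/-) 5). Between the mutants they numbered 283 with the Actb covariate, 3164 under an adjusted p of 0.10, 3709 with array weights, 981 with the Y-linked covariate and 866 to 2061 without 1 array (866 without Ednrb -/- 29, 912 and 1017 without Ednrb-FLEX(NCC-/-) 6 and 5, 1091 without Ednrb -/- 41). A covariate uses up 1 of few degrees of freedom, and the Actb ratio also separates the Ednrb -/- arrays from all others. Beyond that the cause of these shifts was not tested. No paired analysis was possible because the groups share no replicate numbers in the labels. Probe sets below the array median may carry little signal over background, which limits the dim Spry4, Etv4, Etv5, Fgfr2, Fgfr3, Fgf5 and 4930518C04Rik values. Whether each was detected was not tested. Etv5 1450082_s_at and the dim Etv4 probe set followed the brightest of their gene at 0.85 and 0.68 (Pearson, 9 arrays). The other dim Spry4, Etv5, Fgfr2 and Fgfr3 probe sets did so at 0.36 or less. The called Spry2 probe set is also near the array median in wild type, where arrays 1B and 1D (6.82 and 6.71) lay below their medians (6.84 and 6.85).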
